A study of Mus musculus with 30 samples.

Results

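The genes of fatty acid oxidation, ketone body metabolism and the peroxisome were followed through 5 growth hormone receptor genotypes in fasted mouse liver and subcutaneous fat. They were chosen by name, with earlier results of these data known. The list holds 36 genes, taken over every probe whose platform annotation gives the listed symbol as its 1 gene. Of these, 35 genes had a named probe, and Acsl1, an enzyme that activates long-chain fatty acids, had none. The 35 are a small part of the 19406 genes named on the array, and are measured by 55 of its 46643 probes, with 1 probe for 20 genes, 2 for 10 and 3 for 5.

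All mice were males aged 4 months that had gone without food overnight, and this holds for the controls too, so nothing here compares fasted with fed animals. The receptor was wild type (WT), shortened at amino acid 569 or at amino acid 391, altered in its Box1 segment, or absent (KO), and the series title describes the mutants as knock-in mice. Each genotype has 3 arrays in liver and 3 in fat, 30 in all. The sources used here name neither the strain nor whether each array is a separate animal, so a p-value speaks only of the spread between arrays, which may in part be technical. As background, Box1 is where the receptor binds the kinase JAK2, and the tail beyond amino acid 391 carries tyrosines on which the transcription factor STAT5 docks, of which the 569 form keeps some.

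A deposited value is the ratio of a probe to its own median over the 15 arrays of its tissue, so 1 is the middle array, and levels cannot be compared between probes or between tissues. Differences below are on the log2 scale, where 1 is a doubling, and are given ± the standard error (SE) of a limma fit to the 15 arrays of a tissue. A probe is called where its Benjamini-Hochberg adjusted p over all 46643 probes is under 0.05. The number after a genotype (569 liver 3) only names an array. In bulk tissue a smaller share of a cell type and less RNA per cell cannot be told apart.

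Slides are read from the sample titles, which end in a number and a letter. Arrays with the same number are taken to share a slide. WT and 569 shared a slide in each tissue, 391 and KO shared another, and the Box1 arrays of both tissues sat together on 1 slide. Only 569 with WT and KO with 391 were therefore compared within a slide, and elsewhere genotype and slide cannot be told apart. The livers labelled 391 are not alike in their cells: of 12 exocrine pancreas markers, 10 lay above a log2 ratio of 1 in 391 livers 2 and 3 (array medians 2.90 and 2.53) and 0 in any other liver, with a summed ratio of 11.45 to 259.40 in the 391 livers against 11.18 to 14.66 in all others. In 391 liver 2, 8 of 11 skeletal muscle markers also lay above 1 (array median 2.47), and 0 did in any other liver. Hepatocyte markers had array medians between -0.27 (569 liver 3) and 0.07 in liver. The receptor gene Ghr has 2 probes, on which KO and WT arrays overlapped in both tissues. Probe 100360095 stood at 1.4, 0.81 and 1 in KO livers against 0.8, 0.61 and 1.14 in WT livers. Probe 2260156 stood at 1.51, 1.09 and 1.26 in KO and at 1.09, 0.92 and 1.27 in WT livers, and at 0.3, 0.26 and 0.23 in the Box1 livers, below the 0.68 to 1.51 of every other liver. In fat the probes stood at 1.03, 0.68 and 1.26 and at 1.12, 0.29 and 0.46 in KO, against 1, 2.05 and 1.64 and 1.09, 1.97 and 1.47 in WT. Where the probes lie relative to the changed parts of the gene is not known here, so they check no label.

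Between meals the liver burns the fatty acids that fat tissue releases. Long-chain acyl groups enter mitochondria on carnitine, are shortened there by beta-oxidation, pass electrons to the respiratory chain through the electron transfer flavoprotein, and end as acetyl-CoA, much of which the fasting liver turns into ketone bodies. Peroxisomes shorten very long, branched and hydroxylated acids, and the nuclear receptor PPAR-alpha (Ppara) drives many genes of both organelles during fasting.

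To show the DNA next to the genes whose values stand out below, the 250 bases upstream of the annotated start of 5 members are printed 5′ to 3′ on the gene's strand, from RefSeq (assembly GRCm38.p6). Capitals mark matches, on either strand, to AGGTCA (the hexamer bound by nuclear receptors), AGGNCANAGGNCA (a direct repeat of it with 1 base between, the form PPAR-alpha binds; it can contain an AGGTCA) or TTCNNNGAA (the STAT motif). Hao2 and Hao1 are shown as related enzymes whose called changes ran in opposite directions, Acadm and Cpt2 because they are called genes with a match, and Fabp1 because it holds the direct repeat.
Hao2, chr3:98893231-98893480, strand -: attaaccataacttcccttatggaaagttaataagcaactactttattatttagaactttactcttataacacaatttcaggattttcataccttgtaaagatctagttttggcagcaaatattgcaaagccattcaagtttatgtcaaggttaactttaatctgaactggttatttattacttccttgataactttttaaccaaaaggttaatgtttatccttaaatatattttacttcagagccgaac
Hao1, chr2:134554353-134554602, strand -: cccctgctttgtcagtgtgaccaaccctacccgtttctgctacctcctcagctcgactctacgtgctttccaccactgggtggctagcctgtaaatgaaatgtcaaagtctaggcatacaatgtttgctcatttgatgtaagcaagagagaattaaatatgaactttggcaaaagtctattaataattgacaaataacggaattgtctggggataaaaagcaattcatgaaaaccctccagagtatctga
Acadm, chr3:153944644-153944893, strand -: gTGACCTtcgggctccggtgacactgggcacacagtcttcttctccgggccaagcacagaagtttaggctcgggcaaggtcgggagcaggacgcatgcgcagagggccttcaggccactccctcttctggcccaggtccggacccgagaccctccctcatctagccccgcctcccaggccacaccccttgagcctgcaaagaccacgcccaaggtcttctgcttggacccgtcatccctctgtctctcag
Cpt2, chr4:107923590-107923839, strand -: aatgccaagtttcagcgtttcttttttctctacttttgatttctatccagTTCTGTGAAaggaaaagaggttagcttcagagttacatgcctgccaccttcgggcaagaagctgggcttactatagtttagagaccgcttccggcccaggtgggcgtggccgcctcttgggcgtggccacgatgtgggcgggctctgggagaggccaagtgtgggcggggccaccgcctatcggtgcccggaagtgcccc
Fabp1, chr6:71199629-71199878, strand +: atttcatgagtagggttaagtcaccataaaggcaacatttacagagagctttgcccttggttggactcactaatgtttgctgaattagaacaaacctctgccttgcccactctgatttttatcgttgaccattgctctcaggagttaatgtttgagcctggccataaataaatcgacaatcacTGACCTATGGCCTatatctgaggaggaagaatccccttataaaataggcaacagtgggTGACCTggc

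The windows of Hao2 and Hao1 hold none of the 3 motifs, which says only that these letters are absent from these 250 bases. Acadm has 1 AGGTCA (as TGACCT), its first base 249 bases before the start, and Cpt2 has 1 TTCNNNGAA, beginning 200 bases before it. Fabp1 has the direct repeat 67 bases before the start, with an AGGTCA inside it, and a separate AGGTCA at 9 bases. RefSeq windows were found for 31 of the 36 genes, 34 windows in all. AGGTCA occurs in 5 of these 34 (Acadm, Acadvl, Acot4, Cpt1a and Fabp1) and in 14.024% of all 32851 windows, the direct repeat in 1 and in 0.338% of all, and TTCNNNGAA in 3 (Cpt2, Hadha and Hadhb) and in 7.02% of all. No window was used for Acaa2, Acat1, Cpt1b, Decr1 and Vnn1.

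In the 9 livers labelled 391, Box1 or KO, 19 of the 55 probes were higher than in the 6 WT and 569 livers and 1 was lower, where 9.61% of all probes on the array were called in this comparison (8.69% higher and 0.915% lower). The 20 called probes are 36.4% of the members. Because the list was chosen with earlier results of these data known, this share cannot test the set against the array. Hao2 stood out with a difference of 1.99 ± 0.11, the muscle-type carnitine transferase Cpt1b followed with 1.51 and 0.84 on its 2 probes, and the other 16 higher probes, of 13 genes, moved by between 0.32 and 0.65. Hao1 alone fell, by 0.72. Over all 55 probes the median difference was 0.27, with 48 above 0 and 7 below. The median over all probes was 0.02, with 58.0% of them above 0.

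How many members are called rests on the 569 livers. Against WT alone the count is 4 (3 higher, 1 lower; 3.09% of all probes called), namely Hao2, both Cpt1b probes and Hao1. Against 569 alone it is 22 (21 higher, 1 lower; 8.24% of all probes called). It is 12 without 569 liver 2, 12 without 569 liver 3 and 13 without WT liver 2. The share of all probes called was not computed for these refits, so whether other probes changed alike is not known. Leaving out 391 livers 2 and 3, which hold the pancreatic transcripts, leaves 391 liver 1 as the 1 array of its genotype. That array has the highest member median of any liver, 0.33, and no count is given for this refit.

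**Figure D1:**
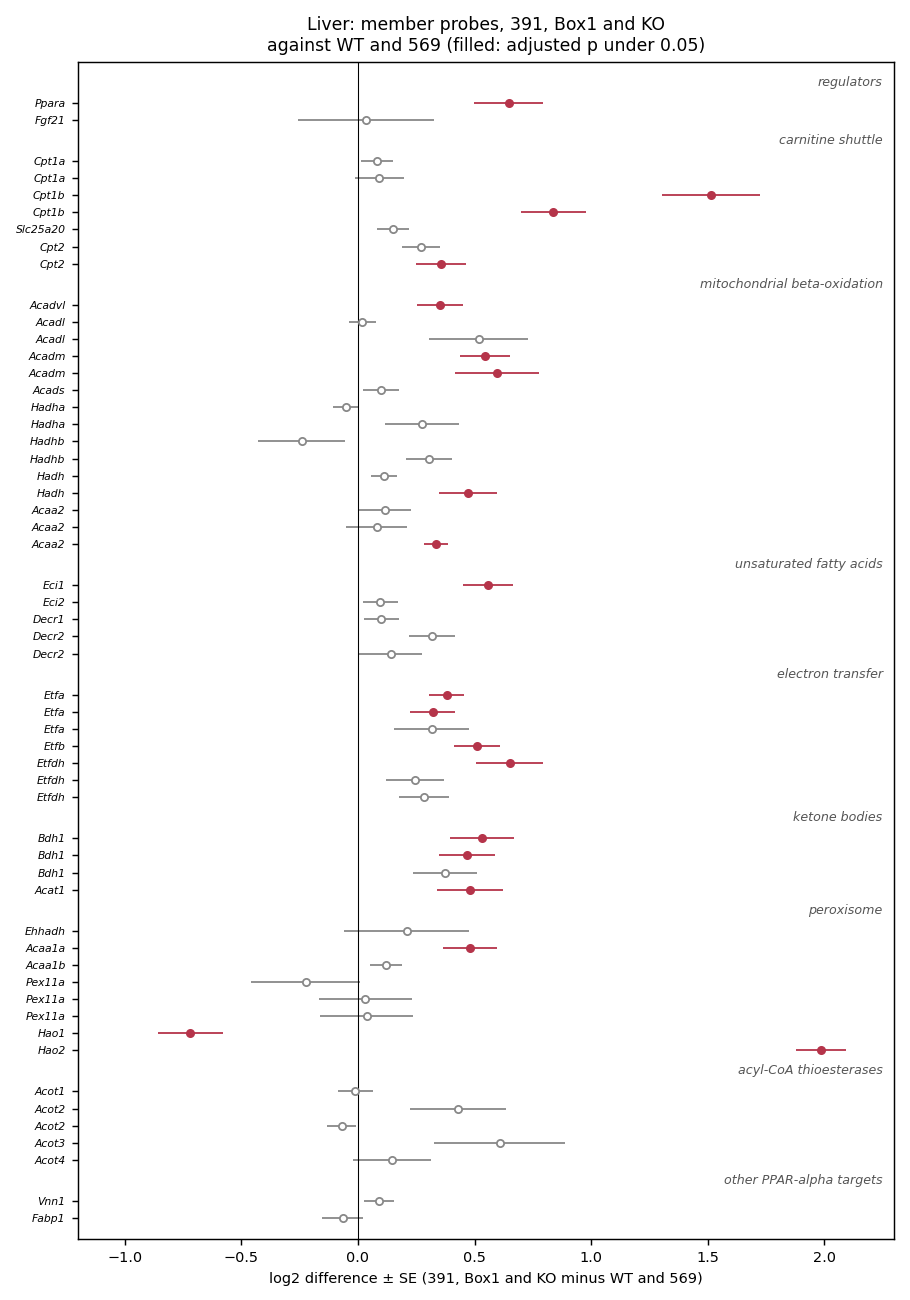
Each point is a member probe in liver, grouped by role, with the log2 difference between the mean of the 391, Box1 and KO genotype means and the mean of the WT and 569 genotype means on the horizontal axis and its SE as a bar. Filled points have an adjusted p under 0.05. Of the 55 points 48 lie above 0, with Hao2 far to the right at 1.99, both Cpt1b probes next at 1.51 and 0.84, and Hao1 to the left at -0.72.

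The 569 livers lay lowest as a set, within the slide they share with WT. Of the 55 probes, 47 were lower and 8 higher than in WT livers, and of all 46643 probes 26662 were lower. The members' median was -0.22, against -0.02 over all probes, and 0 members were called (0.00858% of all probes). An unadjusted limma p under 0.05 was found for 13 members, 1 of them higher, and for 3268 of all probes, 806 of them higher. All 3 arrays of 569 lay below all 3 of WT for 12 probes and above them for 1 (6.72% and 3.72% of all probes). The array medians over the members were -0.14, -0.29 and -0.49 in 569 livers and 0.00, -0.12 and -0.07 in WT livers. The hepatocyte markers had their lowest array median, -0.27, in 569 liver 3, the array with the lowest member median, and their part in this result was not tested.

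**Figure D2:**
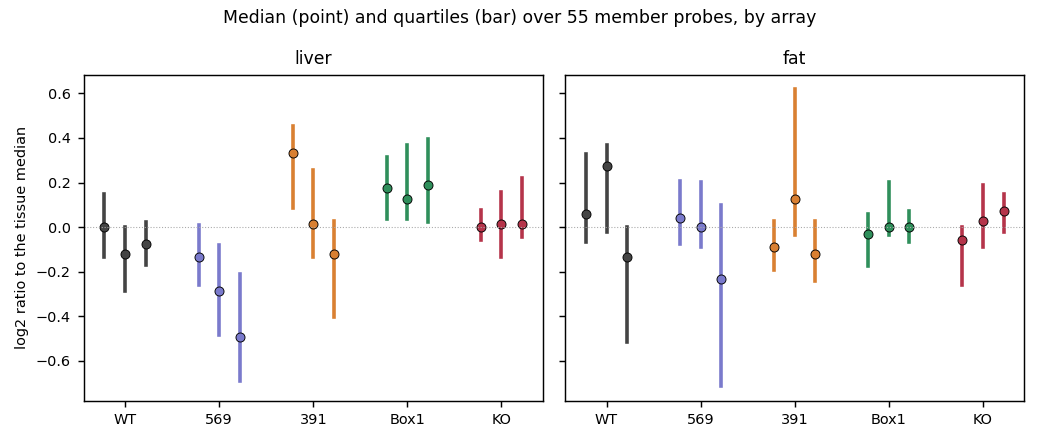
Each point is the median log2 ratio of the 55 member probes on 1 array, with a bar from the first to the third quartile, for liver (left) and fat (right), ordered by genotype. In liver the Box1 arrays lie between 0.12 and 0.19, the KO arrays near 0 and the 569 arrays between -0.14 and -0.49, while the 391 arrays run from -0.12 to 0.33. In fat the Box1 arrays lie between -0.03 and 0, and every other genotype has arrays on both sides of 0.

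Of the regulators, Ppara rose in the 391, Box1 and KO livers and Fgf21, the hormone that PPAR-alpha induces in the fasting liver, did not. The Ppara ratios were 1, 0.87 and 0.96 in WT livers, 0.8, 0.81 and 0.63 in 569, 1.79, 0.93 and 0.86 in 391, 1.48, 1.61 and 1.18 in Box1 and 1.41, 1.13 and 1.75 in KO. All Box1 and KO livers and 391 liver 1 lay above all 6 WT and 569 livers, and 391 livers 2 and 3 lay among them. The difference was 0.65 ± 0.15 (adjusted p = 0.011). Without those 2 arrays of 391 it was 0.87, with 391 liver 1 left as the 1 array of its genotype. Against WT alone it was 0.47 and was no longer called (adjusted p = 0.24).

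Fgf21 varied widely between arrays of a genotype. Its ratios were 2.17, 0.73 and 1.6 in WT livers, 0.91, 1.01 and 0.35 in 569, 1.3, 1.17 and 2.77 in 391, 0.53, 0.86 and 1 in Box1 and 1.1, 0.65 and 0.67 in KO. The 391 livers lay above all 569, Box1 and KO livers and overlapped with WT, and every other pair of genotypes overlapped. The pooled difference was 0.04 ± 0.29 (adjusted p = 0.97).

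In the carnitine shuttle 3 of 7 probes rose, and the liver-type enzyme was not among them. Cpt1a, the carnitine palmitoyltransferase that sets the rate of entry in liver, stayed near 1 on both probes, apart from KO liver 3 on the second. On the first (6350093) the ratios were 1.01, 1 and 0.95 in WT livers, 0.89, 0.85 and 1.04 in 569, 1.07, 0.91 and 1.19 in 391, 1.07, 1.09 and 0.95 in Box1 and 0.9, 0.93 and 1.01 in KO. On the second (104780164) they were 0.86, 0.95 and 1 in WT livers, 1.16, 0.96 and 0.87 in 569, 0.86, 0.93 and 1.23 in 391, 0.81, 1 and 1.02 in Box1 and 1.02, 1.02 and 1.48 in KO. All genotypes overlapped on the first probe. On the second every KO liver lay above every WT liver, KO and Box1 met at 1.02, and the other pairs of genotypes overlapped. The pooled differences were 0.08 ± 0.07 (adjusted p = 0.59) and 0.09 ± 0.11 (adjusted p = 0.72).

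Cpt1b, the isoform of muscle and brown fat, was higher in all 9 livers of 391, Box1 and KO than in any of the 6 WT and 569 livers, on both probes. On probe 940086 the ratios were 0.74, 0.55 and 0.66 in WT livers, 0.69, 0.49 and 0.25 in 569, 2.36, 1.81 and 1 in 391, 1.57, 1.81 and 1.68 in Box1 and 0.96, 1.39 and 1.59 in KO. On probe 2690433 they were 0.87, 0.68 and 0.9 in WT livers, 0.81, 0.68 and 0.59 in 569, 1.59, 1.59 and 0.95 in 391, 1.1, 1.76 and 1.41 in Box1 and 1, 1.46 and 1.4 in KO. The lowest of the 9 were 391 liver 3 and KO liver 1, and the lowest of all was 569 liver 3. The differences were 1.51 ± 0.21 (adjusted p = 4.1e-04) and 0.84 ± 0.14 (adjusted p = 0.0015), 2.86-fold and 1.79-fold, and both remained called against WT alone (1.24, adjusted p = 0.019, and 0.72, adjusted p = 0.040). The skeletal muscle markers were raised in 391 liver 2 only. Without that array the differences were 1.49 and 0.80. The highest Cpt1b ratio, 2.36, was in 391 liver 1, where 0 of the 11 muscle markers lay above a log2 ratio of 1. Of 9 brown fat markers, 3 lay above 1 in 391 liver 2 and 0 in 391 livers 1 and 3. At most 2 did in a WT liver, 1 in a 569 or KO liver and 0 in a Box1 liver. The part of muscle or brown fat cells in the Cpt1b values was not tested.

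Cpt2, the inner membrane partner that returns acyl groups to CoA, rose on 1 probe by little. The ratios on probe 6180075 were 1.16, 0.75 and 0.82 in WT livers, 0.88, 0.82 and 0.61 in 569, 1.27, 0.92 and 0.89 in 391, 1.1, 1.18 and 1.14 in Box1 and 1.03, 1.03 and 1 in KO. Only 391 liver 1 and Box1 liver 2 exceeded the highest WT liver, and the 569 livers and the remaining WT livers were below 0.9. The difference was 0.36 ± 0.11 (adjusted p = 0.0496), and it was not called when any of 11 arrays was left out (adjusted p from 0.068 to 0.15), the exceptions being WT liver 1, 569 liver 1 and 391 livers 2 and 3. Its other probe (3940504) differed by 0.27 (adjusted p = 0.052), and Slc25a20, the carnitine carrier, by 0.15 (adjusted p = 0.24).

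**Figure D3:**
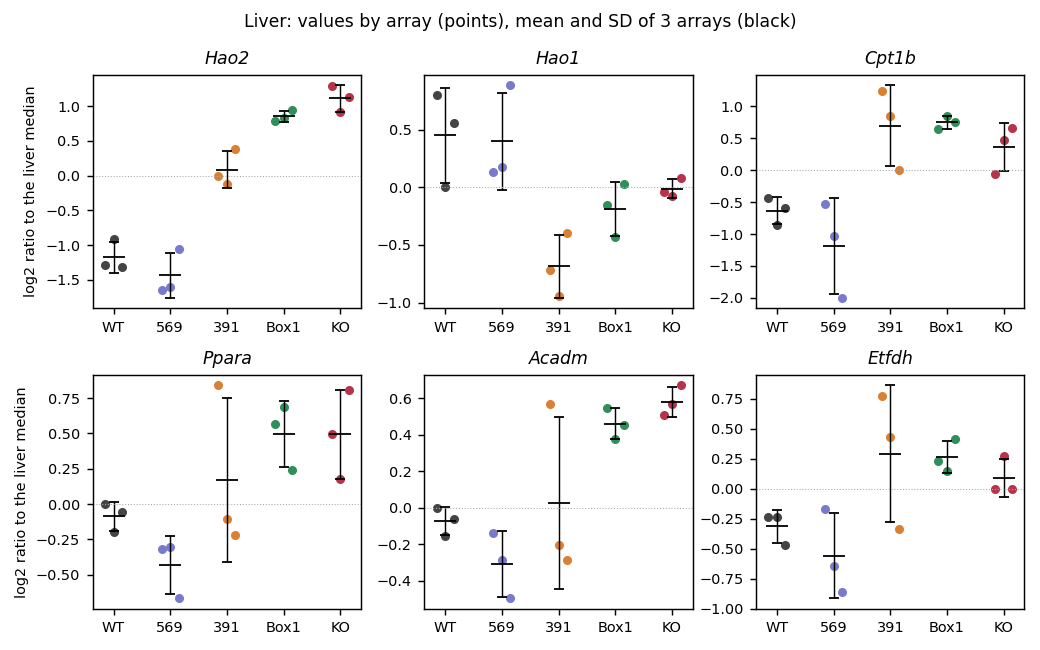
Each panel shows 1 member probe in liver (Cpt1b by probe 940086, Acadm by 460112, Etfdh by 4670358), with the log2 ratio of each array as a point and the mean and SD of the 3 arrays of a genotype in black. Hao2 climbs from -1.17 ± 0.22 in WT to 1.11 ± 0.19 in KO, Cpt1b separates the 391, Box1 and KO arrays from the WT and 569 arrays, and the 391 arrays spread widely for Ppara, Acadm and Etfdh.

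Of the 15 probes for the mitochondrial beta-oxidation cycle, 5 rose, from 4 of 8 genes. Medium-chain acyl-CoA dehydrogenase, Acadm, rose on both of its probes. The ratios on probe 460112 were 1, 0.9 and 0.96 in WT livers, 0.91, 0.82 and 0.71 in 569, 1.48, 0.87 and 0.82 in 391, 1.46, 1.3 and 1.37 in Box1 and 1.42, 1.48 and 1.59 in KO. All Box1 and KO livers and 391 liver 1 were at least 1.3, and the WT, 569 and other 391 livers were at most 1. The difference was 0.54 ± 0.11 (adjusted p = 0.0046), 0.72 without 391 livers 2 and 3 and 0.43 against WT alone (adjusted p = 0.12). On probe 3390113 the ratios were 0.77, 0.93 and 0.93 in WT livers, 1, 0.88 and 0.66 in 569, 2.24, 1.2 and 0.76 in 391, 1.3, 0.95 and 1.42 in Box1 and 1.34, 1.46 and 1.42 in KO. There 391 liver 3 and Box1 liver 2 lay among the WT and 569 livers, and the difference was 0.60 ± 0.18 (adjusted p = 0.049), lost without any of 11 arrays and called without 569 liver 1, 391 livers 1 and 3 or Box1 liver 2.

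Acadvl, the very-long-chain dehydrogenase that begins the cycle, had ratios of 0.99, 0.77 and 1 in WT livers, 0.99, 0.68 and 0.7 in 569, 1.31, 0.96 and 1.03 in 391, 1.13, 1.23 and 1.1 in Box1 and 1.03, 1.08 and 0.87 in KO. All but 391 liver 2 and KO liver 3 were above every WT and 569 liver, by a small margin for most. The difference was 0.35 ± 0.10 (adjusted p = 0.036), and it was lost in 9 of the 15 refits without 1 array, among them those without WT liver 2 (adjusted p = 0.12) and 569 liver 2 (adjusted p = 0.12). The others were 569 liver 3, 391 liver 1, all Box1 livers and KO livers 1 and 2.

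Hadh, the short-chain hydroxyacyl-CoA dehydrogenase, and Acaa2, the mitochondrial thiolase, rose on 1 probe each while their other probes were not called. On Hadh probe 3830465 the ratios were 0.82, 0.78 and 0.77 in WT livers, 0.77, 0.77 and 0.71 in 569, 1.35, 1 and 0.64 in 391, 1.02, 1.09 and 1.38 in Box1 and 1.04, 1.05 and 1.25 in KO. Every array of 391, Box1 and KO but 391 liver 3 lay above every WT and 569 array. The difference was 0.47 ± 0.12 (adjusted p = 0.024). It missed the threshold without WT liver 2 or 3 or 569 liver 2 or 3 (adjusted p from 0.053 to 0.060), and the other probe (1690341) differed by 0.11 (adjusted p = 0.29). On Acaa2 probe 6130139 the ratios were 0.88, 0.98 and 0.93 in WT livers, 0.79, 0.77 and 0.83 in 569, 1.26, 1.08 and 1.18 in 391, 1.1, 1.08 and 1 in Box1 and 1.05, 0.97 and 1.07 in KO. All but KO liver 2 were above every WT and 569 liver, and the difference was 0.33 ± 0.05 (adjusted p = 8.8e-04). Its other probes differed by 0.12 and 0.08 (adjusted p = 0.66 and 0.82).

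The remaining genes of the cycle did not pass the test. Long-chain dehydrogenase Acadl differed by 0.02 on 1 probe and 0.52 on the other (adjusted p = 0.91 and 0.17), and short-chain dehydrogenase Acads by 0.10 (adjusted p = 0.55). The trifunctional protein, which carries the later steps for long chains, differed by -0.05 and 0.27 on its alpha subunit Hadha and by -0.24 and 0.30 on its beta subunit Hadhb (adjusted p = 0.064 to 0.70 over the 4 probes).

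Unsaturated fatty acids need extra enzymes to move or remove double bonds, and 1 of 5 probes for these rose. Eci1, the mitochondrial enoyl-CoA isomerase, had ratios of 0.86, 0.71 and 0.96 in WT livers, 0.89, 0.72 and 0.61 in 569, 1.41, 0.88 and 1 in 391, 1.35, 1.3 and 1.11 in Box1 and 1.12, 1.17 and 1.12 in KO. All but 391 liver 2 were above every WT and 569 liver. The difference was 0.56 ± 0.11 (adjusted p = 0.0039), and it was 0.46 against WT alone (adjusted p = 0.091). The peroxisomal isomerase Eci2 differed by 0.09, the mitochondrial reductase Decr1 by 0.10, and the peroxisomal reductase Decr2 by 0.32 and 0.14, none of them called (adjusted p from 0.055 to 0.65).

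Electron transfer held the largest share of called probes of any role with more than 4 probes, 4 of 7, with at least 1 probe for each of its 3 genes. These encode the flavoprotein's subunits, Etfa and Etfb, and Etfdh, the membrane enzyme that hands their electrons to ubiquinone. The Etfb ratios were 1, 0.75 and 0.89 in WT livers, 0.77, 0.69 and 0.58 in 569, 1.41, 0.91 and 1.26 in 391, 1.05, 1.19 and 0.93 in Box1 and 1.06, 1.04 and 1.09 in KO. All but 391 liver 2 and Box1 liver 3 were above every WT and 569 liver, and the difference was 0.51 ± 0.10 (adjusted p = 0.0041). For Etfdh (probe 4670358) the ratios were 0.85, 0.85 and 0.72 in WT livers, 0.89, 0.64 and 0.55 in 569, 1.71, 1.35 and 0.79 in 391, 1.17, 1.11 and 1.33 in Box1 and 1, 1.21 and 1 in KO. All but 391 liver 3 were above every WT and 569 liver, and the difference was 0.65 ± 0.14 (adjusted p = 0.0089).

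Etfa moved less. On probe 50347 its ratios were 0.9, 0.86 and 0.88 in WT livers, 0.86, 0.71 and 0.71 in 569, 1.26, 1.05 and 0.87 in 391, 1.1, 1 and 1.02 in Box1 and 1.04, 1.1 and 1.17 in KO. Here too 391 liver 3 was the 1 array that fell among the WT and 569 livers, and the difference was 0.38 ± 0.07 (adjusted p = 0.0044). On probe 5690040 they were 1.04, 0.74 and 0.82 in WT livers, 0.84, 0.7 and 0.79 in 569, 1.3, 0.91 and 0.82 in 391, 1.09, 1.04 and 1.02 in Box1 and 1.03, 1.01 and 1 in KO. WT liver 1 was as high as most mutant livers there, only 391 liver 1 and Box1 liver 1 exceeded it, and the difference of 0.32 ± 0.10 (adjusted p = 0.047) was lost without any of 10 arrays (adjusted p up to 0.14), all but WT liver 1, 569 liver 1 and the 391 livers. The uncalled probes differed by 0.32 for Etfa and by 0.24 and 0.28 for Etfdh. Against WT alone the called Etfb, Etfdh and Etfa (50347) probes differed by 0.32, 0.53 and 0.27 and were not called (adjusted p = 0.23, 0.16 and 0.17).

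Among the ketone body enzymes 3 of 4 probes rose. Acat1, the mitochondrial acetoacetyl-CoA thiolase, had ratios of 1.1, 0.92 and 1.03 in WT livers, 0.72, 0.5 and 0.39 in 569, 1.36, 1.12 and 0.9 in 391, 1.02, 1.22 and 0.94 in Box1 and 1.07, 1 and 0.65 in KO. The 569 livers were all below the WT livers, and of the other arrays KO liver 3 alone lay among them, while WT, 391, Box1 and KO overlapped. The pooled difference was 0.48 ± 0.14 (adjusted p = 0.043), and against WT alone it was -0.0025 (adjusted p = 0.998). Against 569 alone it was 0.96 (adjusted p = 0.0041), while 569 itself differed from WT, on the same slide, by -0.96 ± 0.22 without passing the test (adjusted p = 0.24). The pooled call was lost without any of 12 arrays and kept without 569 liver 1, 391 liver 3 or KO liver 3.

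Bdh1, which interconverts acetoacetate and 3-hydroxybutyrate, rose on 2 of 3 probes. On probe 2850390 the ratios were 0.92, 0.88 and 1.05 in WT livers, 0.84, 0.66 and 0.64 in 569, 1, 0.79 and 1.12 in 391, 1.46, 1.13 and 1.22 in Box1 and 1.09, 0.95 and 1.66 in KO. On probe 50458 they were 0.88, 1.04 and 0.91 in WT livers, 0.9, 0.74 and 0.67 in 569, 1.36, 1.08 and 0.88 in 391, 1.47, 0.99 and 1.46 in Box1 and 1, 1.23 and 1.85 in KO. Most Box1 and KO livers were high, but 3 arrays on each probe, at least 1 of them from 391, lay within the range of WT and 569. The differences were 0.47 ± 0.12 (adjusted p = 0.020) and 0.53 ± 0.14 (adjusted p = 0.023). Each lost its call without 569 liver 2 or 3, the first also without WT liver 2 and the second without WT liver 3 (adjusted p from 0.057 to 0.064). The third probe (102470619) differed by 0.37 (adjusted p = 0.11).

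The peroxisomal genes held both the largest rise and the 1 fall. Hao2 encodes a peroxisomal oxidase of long-chain 2-hydroxy acids, and its ratios were 0.41, 0.53 and 0.4 in WT livers, 0.32, 0.33 and 0.48 in 569, 1, 0.92 and 1.3 in 391, 1.72, 1.78 and 1.92 in Box1 and 2.45, 1.88 and 2.18 in KO. WT and 569 overlapped at the bottom, then came 391, and all Box1 and KO livers lay above all 391 livers, Box1 and KO overlapping. The means on the log2 scale were -1.17 ± 0.22 (SD, n = 3) in WT, -1.43 ± 0.33 in 569, 0.09 ± 0.26 in 391, 0.85 ± 0.08 in Box1 and 1.11 ± 0.19 in KO. The pooled difference of 1.99 ± 0.11 is 3.96-fold (adjusted p = 1.8e-08), and it was 1.86 against WT alone and 1.96 without 391 livers 2 and 3. The 6 kidney tubule markers, of an organ that also makes this enzyme, had 0 genes above a log2 ratio of 1 in any liver. The part of other cells in the Hao2 values was not tested.

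Hao1, the related oxidase of glycolate in liver peroxisomes, went the other way. Its ratios were 1.74, 1 and 1.47 in WT livers, 1.1, 1.13 and 1.85 in 569, 0.61, 0.52 and 0.76 in 391, 0.9, 0.74 and 1.02 in Box1 and 0.97, 0.95 and 1.06 in KO. All 391 livers lay below every WT and 569 liver, and the Box1 and KO livers reached up to 1.06, just past the lowest WT liver at 1. The mean log2 ratio was 0.45 ± 0.41 in WT, 0.40 ± 0.42 in 569, -0.68 ± 0.27 in 391, -0.19 ± 0.23 in Box1 and -0.01 ± 0.08 in KO (SD, n = 3). The pooled difference was -0.72 ± 0.14 (adjusted p = 0.0040), and against WT alone -0.75 (adjusted p = 0.032).

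Acaa1a, a peroxisomal thiolase, rose by 0.48 ± 0.11 (adjusted p = 0.014). Its ratios were 0.92, 0.7 and 1 in WT livers, 0.83, 0.69 and 0.54 in 569, 1.27, 0.85 and 1.09 in 391, 1.17, 1.09 and 0.87 in Box1 and 1.13, 1.04 and 1.16 in KO. All but 391 liver 2 and Box1 liver 3 were above every WT and 569 liver, and against WT alone the difference was 0.30 (adjusted p = 0.36). The near-identical Acaa1b differed by 0.12 (adjusted p = 0.37), and which copy each probe measures is uncertain.

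Ehhadh, the bifunctional enzyme of peroxisomal beta-oxidation and a standard PPAR-alpha target, split the mutants. Its ratios were 1.12, 0.95 and 1.18 in WT livers, 1, 0.69 and 0.2 in 569, 1.12, 1.19 and 0.59 in 391, 1.13, 1.17 and 1.04 in Box1 and 0.55, 0.74 and 0.6 in KO. The 3 KO livers lay below all WT and all Box1 livers, and 569 liver 3 was the lowest of all at 0.2. KO differed from WT by -0.79 ± 0.41 (adjusted p = 0.47) and from Box1 by -0.83 ± 0.41 (adjusted p = 0.60), neither of which passed the test, and the pooled difference was 0.21 ± 0.27 (adjusted p = 0.75). The 3 probes of Pex11a, which governs peroxisome number, differed by -0.22, 0.03 and 0.04 in the pooled comparison (adjusted p = 0.68, 0.96 and 0.95).

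None of the 5 thioesterase probes was called. Acot1, the cytosolic enzyme that frees fatty acids from CoA and a common readout of PPAR-alpha, had ratios of 1.04, 0.99 and 0.85 in WT livers, 1.08, 1.19 and 1 in 569, 0.93, 1.06 and 0.87 in 391, 1.06, 1.15 and 0.93 in Box1 and 1, 1.18 and 0.97 in KO. All groups overlapped with WT and the pooled difference was -0.01 ± 0.07 (adjusted p = 0.96). Acot2 differed by 0.43 and -0.07, Acot3 by 0.61 and Acot4 by 0.15 (adjusted p from 0.24 to 0.96 over the 5 probes). Acot1 to Acot4 are near-identical neighbours, so the copy each probe measures is uncertain. Vnn1, a pantetheinase, and Fabp1, the liver fatty acid binding protein whose promoter holds the direct repeat, differed by 0.09 and -0.06 (adjusted p = 0.51 and 0.77).

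Taken 1 at a time against WT, the mutants had few calls each. In 391 livers 2 probes rose and 1 fell (1.91% of all probes called): Hao2 by 1.26 ± 0.17 (adjusted p = 9.4e-04), Acaa2 probe 6130139 by 0.33 ± 0.08 (adjusted p = 0.048) and Hao1, which fell by 1.14 ± 0.22 (adjusted p = 0.013). Both smaller calls depend on single arrays. Hao1 lost its call without WT liver 3 (adjusted p = 0.064), and Acaa2 lost it without any array but 391 liver 2. The count was 1 without WT liver 3 and 8 without 391 liver 3. Leaving out 391 livers 2 and 3 together leaves only 391 liver 1, so no conclusion is drawn from the count of that refit. The median over the 55 probes was 0.14, with 38 above 0, against 0.02 over all probes, with 55.0% above 0. All 391 arrays lay above all WT arrays for 6 member probes and below for 1 (9.18% and 5.28% of all probes).

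In Box1 livers Hao2 was the 1 probe called, up by 2.03 ± 0.17 (adjusted p = 5.7e-06; 1.32% of all probes called). Yet 50 of the 55 probes were higher than in WT (55.9% of all probes), and the median difference was 0.20 against 0.02 over all probes. For 20 probes all 3 Box1 livers lay above all 3 WT livers (11.5% of all probes), for 0 below (4.87%). Among those 20 were both Cpt1b probes (1.38 and 0.79), both Acadm probes (0.53 and 0.47), both Hadh probes (0.29 and 0.55), Ppara (0.58), Eci1 (0.58), Etfdh probe 4670358 (0.58) and Slc25a20 (0.34). Their adjusted p-values ran from 0.052 to 0.56. All 3 Box1 livers share a slide with no WT array.

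In KO livers Hao2 was again the 1 probe called, up by 2.28 ± 0.17 (adjusted p = 1.5e-06; 1.93% of all probes called). Here 36 probes were higher and 19 lower than in WT (65.5% higher, against 54.7% of all probes), with a median of 0.09 against 0.01 over all probes. All KO arrays lay above all WT arrays for 17 probes and below them for 5 (10.6% and 6.07% of all probes). The 5 are Ehhadh (-0.79), Hadhb probe 60064 (-0.84), Etfdh probe 101340324 (-0.31) and Pex11a probes 670021 and 2320195 (-0.86 and -0.62), and none of them passed the test (adjusted p from 0.19 to 0.56). The 391, Box1 and KO comparisons share the same WT arrays.

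**Figure D4:**
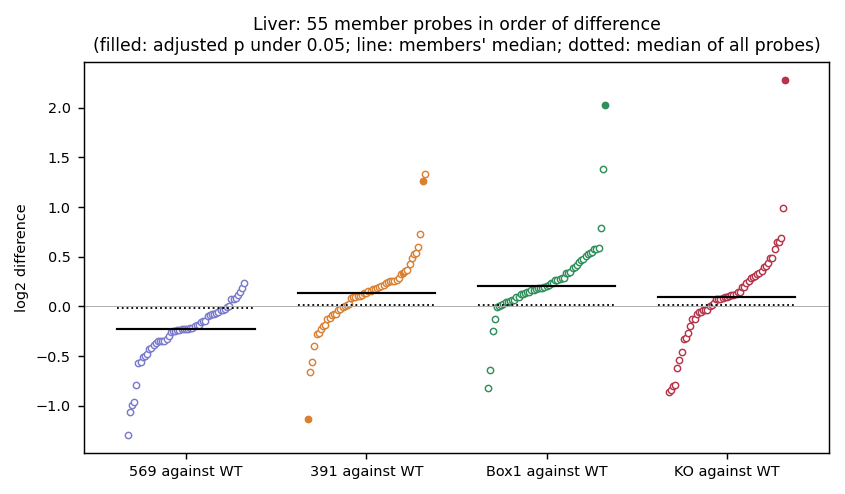
Each point is 1 of the 55 member probes in liver, placed by its log2 difference from WT and ordered within each mutant. Filled points have an adjusted p under 0.05, the line is the members' median and the dotted line the median of all probes. The members' median is -0.22 for 569, 0.14 for 391, 0.20 for Box1 and 0.09 for KO, and the filled points at the top are Hao2 at 1.26, 2.03 and 2.28.

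Between the truncations, 391 against 569, 8 probes rose and 1 fell (4.7% of all probes called). Those that rose were both Cpt1b probes (1.89 and 0.96), Hao2 (1.52), Acat1 (1.10), Etfdh probe 4670358 (0.85), Etfb (0.80), Acaa2 probe 6130139 (0.56) and Etfa probe 50347 (0.47), and Hao1 fell by 1.08 (adjusted p from 1.6e-04 to 0.041). The count was 5 without 569 liver 2 or without 569 liver 3, and 16 without 391 liver 3. Acat1 lost its call without 569 liver 2 or 3, and Cpt1b probe 2690433, Etfa and Etfdh lost theirs without 569 liver 2 or 3 or 391 liver 1 or 2.

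KO and 391, compared on 1 slide, differed on Hao2, which was higher in all 3 KO livers than in all 3 of 391, by 1.02 ± 0.17 (adjusted p = 0.024; 0.18% of all probes called). This call was lost without 391 liver 1 (adjusted p = 0.054), 391 liver 2 (adjusted p = 0.12), KO liver 1 (adjusted p = 0.11) or KO liver 3 (adjusted p = 0.067). KO against Box1 gave 0 calls by limma (0.148% of all probes called). An unadjusted limma p under 0.05 was found for 7 of the 55 probes and for 4064 of all 46643. In that comparison 41 of the 55 probes were lower in KO (23959 of all 46643). For 15 all KO livers lay below all Box1 livers (7.99% of all probes), for 0 above (5.99%). The 15 include all 3 Pex11a probes (-0.88, -0.76 and -0.70), Ehhadh (-0.83), Acot2 probe 380722 (-0.74), Acot3 (-0.52) and Acot4 (-0.47).

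The wider pathway was covered by a further list of 78 genes, of which 72 were measured by 134 probes. This list too was chosen with earlier results of these data known, so its shares cannot test it against the array. In the 391, Box1 and KO livers 36 of these probes rose and 7 fell (32.1%, against 9.61% of all probes), from 28 and 5 genes. The largest fall was of Hacl1, the peroxisomal lyase of 2-hydroxy and branched acids, whose ratios on probe 610148 were 1.88, 1.6 and 1.56 in WT livers, 1.89, 1.42 and 1.77 in 569, 0.99, 1.32 and 0.52 in 391, 0.9, 0.7 and 1 in Box1 and 0.56, 0.64 and 0.71 in KO. All 9 lay below all WT and 569 livers, and the difference was -1.10 (adjusted p = 5.3e-04), while its other probe (4230722) stayed between 0.87 and 1.13. Scp2, a sterol carrier and peroxisomal thiolase, fell by 0.92 and 0.85 on 2 of 4 probes, and Nudt7, a peroxisomal CoA hydrolase, by 0.89 (probe 5910097). Those with the largest rises were the acyl-CoA dehydrogenases Acad10 (0.94, adjusted p = 0.011) and Acad12 (probe 6520377, 0.82, adjusted p = 0.0016), the medium-chain synthetase Acsm3 (0.88, adjusted p = 3.7e-05) and the CoA hydrolase Nudt19 (0.81, adjusted p = 3.5e-05). The other Acad12 probes stayed between 0.88 and 1.15 (101660239) and between 0.87 and 1.14 (103940341) in all livers. On Acsm3 probe 6220170 the 391, Box1 and KO livers overlapped with the WT and 569 livers.

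Against WT, 7 of the 134 probes rose in 391 livers, 5 in Box1 and 13 in KO, and 4 fell in KO. These are 5.22%, 3.73% and 12.7% of the list, against 1.91%, 1.32% and 1.93% of all probes called in the same comparisons. Hacl1 fell by 1.40 in KO livers (adjusted p = 0.0075), Scp2 by 1.38 and 1.34 (adjusted p = 0.013 and 0.0050) and Cat, the peroxisomal catalase, by 0.81 (adjusted p = 0.033), while Acad10 rose by 1.67 (adjusted p = 0.016). Cat ratios were 1.6, 1.12 and 1.29 in WT livers, 0.97, 0.9 and 1.46 in 569, 0.82, 0.98 and 1 in 391, 1.35, 1.23 and 1.65 in Box1 and 0.9, 0.66 and 0.72 in KO. The KO livers lay below all WT and Box1 livers on this probe.

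In fat no member was called in any of the 6 comparisons run. The share of all probes called was 0% for 569 and for KO against WT, 0.0129% for 391 and 0.00214% for Box1 against WT, 0.0193% for 391, Box1 and KO against WT and 569, and 0.0172% for KO against 391. By limma 0, 6, 4, 2, 9 and 3 of the 55 probes had an unadjusted p under 0.05 in 569, 391, Box1 and KO against WT, in the pooled comparison and in KO against 391. Over all 46643 probes the counts were 4178, 2134, 2118, 2912, 4249 and 3124 in the same order. The medians over the 55 probes lay between -0.05 and 0.01. Fgf21 had the lowest p of the regulators, with ratios of 0.81, 0.76 and 0.91 in WT fat, 0.87, 0.75 and 0.57 in 569, 1.12, 0.85 and 1.47 in 391, 2.31, 1.56 and 1.04 in Box1 and 1, 1.13 and 1.18 in KO and a pooled difference of 0.69 ± 0.17 (adjusted p = 0.25).

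The fat arrays differ in the cells they hold. Of 11 skeletal muscle markers, at least 7 lay above a log2 ratio of 1 in 569 fat 1 and 3, 391 fat 3, Box1 fat 3 and KO fat 2 and 3, and 0 in any WT fat, where their array medians were -1.89 to -2.32. Their summed ratio ranged from 4.35 to 5.27 in WT, 4.45 to 426.75 in 569, 11.33 to 29.20 in 391, 5.23 to 197.67 in Box1 and 8.51 to 111.67 in KO fat. Of 9 brown fat markers, 5 lay above 1 in 391 fat 2 and 4 in WT fat 1. Of 10 hepatocyte markers, 6 lay above 1 in Box1 fat 2 and 6 in WT fat 2. In 569 fat 3 all 9 white adipocyte markers lay below -1. Of 8 lymphocyte markers, 5 lay below -1 in all 3 of the 569 fat arrays, in KO fat 2 and 3 and in Box1 fat 3, and 4 in WT fat 2, with 0 in the other 8 fat arrays. Their summed ratio ranged from 2.69 to 3.01 in 569 fat, against 3.81 to 14.1 in WT, 8.10 to 11.9 in 391, 2.68 to 13.7 in Box1 and 2.88 to 11.9 in KO fat.

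The muscle and brown fat isoform Cpt1b varied widely between these arrays. Its ratios on probe 940086 were 2.24, 0.79 and 0.6 in WT fat, 2.39, 0.51 and 10.03 in 569, 0.63, 3.74 and 0.82 in 391, 0.59, 1 and 3.75 in Box1 and 0.52, 1.66 and 1.11 in KO. The highest, 569 fat 3, is the array with the highest median muscle marker, 4.08. Of the next 2, 391 fat 2 had 5 brown markers above 1 and Box1 fat 3 a muscle median of 4.04. In 569 fat 3 the brown markers also had a summed ratio of 31.0, with 2 above 1, against 34.2 in 391 fat 2. The muscle medians of 569 fat 1 and KO fat 2 were 3.77 and 3.58, beside Cpt1b ratios of 2.39 and 1.66. The pooled difference was -0.39 ± 0.68 (adjusted p = 0.89). A refit left out the 7 arrays with at least 7 muscle or 5 brown markers above 1. It kept only 1 array each of 569, 391 and KO fat. Its count of calls therefore cannot decide what these cells contribute and is not given.

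**Figure D5:**
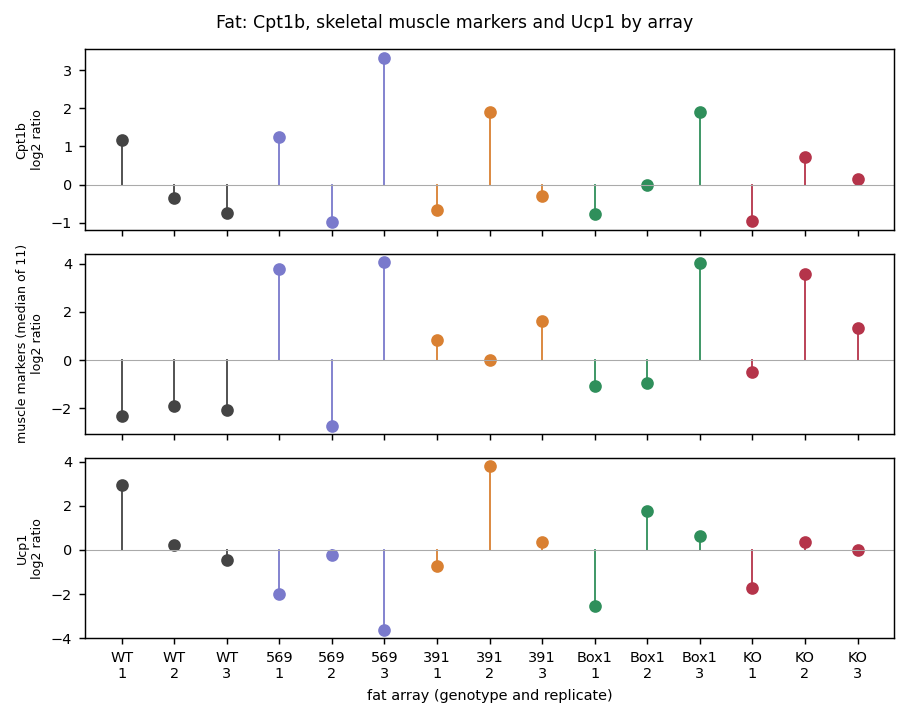
Each stem is 1 fat array, with the log2 ratio of Cpt1b (probe 940086) on top, the median of the 11 skeletal muscle markers in the middle and the brown fat gene Ucp1 at the bottom. Cpt1b is highest in 569 fat 3, 391 fat 2 and Box1 fat 3, of which the first and last have muscle medians of 4.08 and 4.04 and 391 fat 2 has the highest Ucp1.

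Beside the hepatocyte markers of Box1 fat 2 and WT fat 2, the liver-rich members did not move alike. Hao1 was highest in these 2 arrays, at 1.6 and 1.31, and Fabp1 stood at 0.99 and 1 in them. Acaa1b, the peroxisomal thiolase, had fat ratios of 0.54, 1.36 and 0.48 in WT fat, 0.97, 0.74 and 0.12 in 569, 0.84, 1.52 and 1.36 in 391, 1.04, 2.19 and 1 in Box1 and 0.8, 1.29 and 2 in KO. It was highest in Box1 fat 2, next in KO fat 3 and lowest in 569 fat 3, with a pooled difference of 1.18 ± 0.45 (adjusted p = 0.45). The part of these other cells in the fat values was not tested.

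A direct test of liver against fat, over all 30 arrays, asked whether the pooled difference itself depended on the tissue. It called 1 member, Hao2 (0.866% of all probes called). Its difference was 1.99 in liver and -0.02 in fat, which differ by 2.01 ± 0.13 (adjusted p = 3.4e-10). In fat the Hao2 ratios were 1.04, 0.9 and 1.04 in WT fat, 1.06, 1.01 and 0.92 in 569, 0.9, 0.9 and 0.9 in 391, 1.01, 0.99 and 1.05 in Box1 and 1, 0.99 and 1.1 in KO. All 15 lay between 0.9 and 1.1, and whether the transcript is present in fat cannot be read from a ratio. For Cpt1b probe 940086 the liver difference exceeded that in fat by 1.90 ± 0.74 (adjusted p = 0.33) and for Ppara by 0.50 ± 0.19 (adjusted p = 0.31), neither of which passed. The count of called members was 6 without 569 fat 3, 4 without WT fat 3, 3 without 391 fat 2 and 2 without WT fat 1.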

How the data were processed

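Total RNA from frozen liver and subcutaneous fat was biotin-labelled for Illumina bead arrays, per the labels' protocols. The deposited value is a ratio: the authors divided each probe by its median over the 15 arrays of a tissue, as read from the values, since that median was 1 for all 46643 probes in each tissue. The sources used here give no background treatment, software or signal over background. Precision is limited by the 3 arrays per group. Array medians lay between 0.98 and 1.01.

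Log2 ratios, with no pseudocount and no filter, went into linear models by limma 3.58.1 under R 4.3.3, with moderated variances, 5 genotypes of a tissue in 1 fit and 30 arrays in 1 fit for the test between tissues, two-sided, with Benjamini-Hochberg adjustment over all probes. The pooled comparison sets the mean of the 391, Box1 and KO means against the mean of the WT and 569 means. The fit was tested on simulated data.

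Probes were named through the platform annotation, in which 32794 probes have 1 symbol, 55 have several and 13794 have none. All 55 member probes had a RefSeq gene identifier. The members and lists were chosen with earlier results of these data known. Values by array are given for members called in any comparison, at most 20 probes, and always for Ppara, Cpt1a, Cpt1b, Fgf21, Acot1, Ehhadh, Hao1 and Hao2. For the wider pathway list, at most 8 called probes with the largest change are named per comparison. Markers of liver, fat, muscle, pancreas, kidney and lymphoid cells were summarised by array, 1 value per gene. The alternatives were quantile normalization, array medians set to 0, a pseudocount of 0.1, a filter on ratios at or under 0.05, array weights, robust moderation, the compared groups alone, gene means over probes, and leaving out arrays.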

Additional observations from a re-analysis of the deposited data

Results flagged for a closer look

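The pooled difference of Hao2 between the 391, Box1 and KO arrays and the WT and 569 arrays was 1.99 in liver and -0.02 in fat, and the test of that difference between the tissues gave 2.01 ± 0.13 on the log2 scale (limma interaction contrast, adjusted p = 3.4e-10). Hao2 is the 1 member called by this test in the main fit, and the count was 6 with array weights or without 569 fat 3. All 9 livers of 391, Box1 and KO lay above all 6 livers of WT and 569, while in fat all 15 ratios lay between 0.9 and 1.1. Whether the transcript is present in fat cannot be read from these ratios. Groups of 3 arrays were too small to test for outlying samples.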

How the results depend on the processing

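The number of called members depends on the processing more than the direction of their differences. For 391, Box1 and KO against WT and 569 in liver the count of 20 ranged from 12 to 25 without 1 array and fell to 4 with WT alone as the reference, a choice made after seeing the data. For 391 against WT (3) it ranged from 1 to 8 without 1 array, was 1 with the compared groups alone and 11 without both 391 livers that hold pancreatic transcripts. For 391 against 569 (9) it ranged from 5 to 16 without 1 array, and the same 2 alternatives gave 2 and 22. For Box1 against WT (1) it was 2 under quantile normalization, array medians set to 0, a pseudocount of 0.1 and array weights, and 9 with the compared groups alone. For KO against WT (1) it was 2 under quantile normalization and array weights and 7 with the compared groups alone. For KO against 391 (1) it ranged from 0 to 3 without 1 array and was 0 under quantile normalization and with the compared groups alone. For KO against Box1 (0) it was 2 with the compared groups alone. For the liver against fat test (1) it ranged from 1 to 6 without 1 array and was 6 with array weights. In fat, and for 569 against WT in liver, it was 0 under every alternative that kept more than 1 array in each group. The cause was not tested in any of these cases. Without both 391 livers that hold pancreatic transcripts, 391 liver 1 is the 1 array of its genotype. That array has the highest member median of any liver, 0.33. The counts of that refit therefore cannot decide what the pancreatic transcripts contribute, and no conclusion is drawn from them. The share of all probes called was not computed for these alternatives, except with WT alone or 569 alone as the reference.

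Of 36 gene results, 15 lost their call in at least 1 refit without 1 array and 21 in none. A change of sign occurred once: Acat1 in the pooled liver comparison was -0.0025 with WT alone as the reference. The compared groups alone could not be used as an alternative for the pooled and the liver against fat comparisons, which use every group. No paired analysis was possible because the labels give the arrays no replicate numbers. Depth and signal over background are unknown for these ratios.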
